A study of Mus musculus with 2 samples.

Results

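The genes that write, copy and remove DNA methylation were followed in single T cells: the erasers *Tet1*, *Tet2*, *Tet3* and *Tdg*, the writers *Dnmt1*, *Dnmt3a* and *Dnmt3b*, and the maintenance factor *Uhrf1*. They were chosen by name and are 8 of the 32285 genes in the count matrices, and all 8 were found in both matrices. The cells were sorted TCRβ+ cells, that is, T cells bearing the αβ form of the antigen receptor, from spleen pooled with cervical and inguinal lymph nodes. At 14 weeks of age, 1 *Foxp3Cre* WT mouse was compared with 1 DKO-severe *Foxp3-Cre Tet2/3fl/fl* mouse, in which splenomegaly and lymphadenopathy were advanced. Both mice carried Cre at *Foxp3*, a gene of regulatory T (Treg) cells, and the DKO-severe mouse also carried floxed *Tet2* and floxed *Tet3* on both chromosomes, so the deletion is expected in cells that express or once expressed *Foxp3*, and in any cell where this Cre is active outside them. *Tet1* was not targeted. With 1 mouse of each genotype there was no test between genotypes, and every interval below is a 95% interval that covers counting error only and no error between animals.

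Cytosine methylation at CpG dinucleotides is set by the DNA methyltransferases. DNMT3A and DNMT3B methylate new sites, while DNMT1, brought to newly replicated DNA by UHRF1, copies the pattern to the daughter strand. TET enzymes oxidise methylated cytosine, and the thymine DNA glycosylase TDG cuts out the more oxidised forms so that base excision repair can restore cytosine; in T cells these enzymes are known for keeping regulatory elements such as those of *Foxp3* unmethylated.

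The WT matrix held 7189 barcodes and 45294779 UMIs (distinct captured molecules), and the DKO-severe matrix held 7161 and 69692053. After filtering, 6584 WT and 6359 DKO-severe cells remained, with medians of 5616.5 and 8066 UMIs per cell, and no barcode was shared. Cells were gated on their own transcripts, none of which is among the 8 genes. Cd4-gated cells had a *Cd3d*, *Cd3e* or *Cd3g* UMI, a *Cd4* UMI and none of *Cd8a* or *Cd8b1*, and Cd8-gated cells the reverse. There were 1739 WT and 2738 DKO-severe cells in the Cd4 gate and 3052 and 1735 in the Cd8 gate. The Foxp3-positive gate, Cd4-gated cells with a *Foxp3* UMI, held 64 and 331 cells. Cycling cells, T cells with at least 2 of 6 proliferation genes detected, numbered 131 and 701. The B cell gate, cells without *Cd3* UMIs and with at least 2 of 4 B cell genes detected, held 15 and 216 cells; its 15 WT cells had 120031 UMIs in all, so 3 UMIs, the limit that a count of 0 allows, correspond to 24.99 CPM (counts scaled to a total of 1000000 UMIs). In that gate 3 of the 6 T cell markers, the *Cd3* genes that the gate leaves out, were at 0 and all 6 B cell markers were detected, and all 6 T cell markers were detected in the other 4 gates. Plasma cell genes summed to 23602 CPM in the WT B cell gate and 4324 CPM in the DKO-severe one. Transcripts of the granulocyte list (*S100a8*, *S100a9*, *Ltf*, *Ngp*, *Camp*, *Retnlg*) were more abundant in DKO-severe: their summed level in the Cd4 gate was 84.8 CPM in WT against 2999 CPM in DKO-severe, in the Cd8 gate 78.0 and 1408 CPM, and in cycling cells 62.0 and 17021 CPM. Values without cells that carry markers of other cell types are therefore given beside the main differences.

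The targeted genes were examined first. *Tet2* (ENSMUSG00000040943, mm10 chromosome 3, 133463679 to 133545139, minus strand) was at 52.8 CPM in WT against 72.0 CPM in DKO-severe Cd4-gated cells, from 540 and 2013 UMIs, with a log2 ratio of 0.45 (0.31 to 0.59). Foxp3-positive cells had it at 56.6 CPM (37.0 to 83.0) in WT against 71.6 CPM (64.2 to 79.7) in DKO-severe, with a log2 ratio of 0.34 (-0.24 to 0.97). The Foxp3-positive ratio was -0.24 at equal depth, so its direction was not settled. *Tet3* (ENSMUSG00000034832, chromosome 6, 83362373 to 83459084, minus strand) was at 115 and 98.9 CPM in Cd4-gated cells, with a log2 ratio of -0.21 (-0.31 to -0.11). Among Foxp3-positive cells *Tet3* levels were 89.3 and 85.2 CPM, with a log2 ratio of -0.07 (-0.53 to 0.43). Counting with this kit reads the transcript end, the position of the floxed exons is not given in the sources used here, and a transcript lacking an inner exon would still be counted, so these levels do not check the deletion. Both genes share annotated sequence with another counted gene (*Gm42567* within *Tet2* and *B230319C09Rik* within *Tet3*); *Gm42567* had 14 WT and 71 DKO-severe UMIs in the Cd4 gate.

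The third TET gene, which the cross left intact, had the largest difference of the 8. *Tet1* (ENSMUSG00000047146, chromosome 10, 62804570 to 62908996, minus strand) is the member of the family best known from pluripotent and germline cells. It overlaps no other counted gene. In the WT mouse *Tet1* was at 19.2 CPM in Cd4-gated cells (197 UMIs, 16.7 to 22.1) and in the DKO-severe mouse at 2.15 CPM (60 UMIs, 1.64 to 2.76). The log2 ratio was -3.16 (-3.61 to -2.74), which left 11.1% of the WT level. It did not rest on a few cells, as the UMIs lay in 157 of the 1739 WT cells and 53 of the 2738 DKO-severe cells, and no cell held more than 5. Of the 9899 genes with a mean of 5 CPM or more and at least 10 UMIs in that gate, 24 had a lower ratio, and the median over all of them was 0.11.

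*Tet1* was also lower in the other 3 T cell gates. Cd8-gated cells, which do not normally express *Foxp3*, had 16.5 CPM in WT (346 UMIs, 14.8 to 18.3) against 6.23 CPM in DKO-severe (103 UMIs, 5.09 to 7.56), with a log2 ratio of -1.40 (-1.73 to -1.08). For Foxp3-positive cells the count was 8 UMIs in WT against 5 in DKO-severe, or 17.4 CPM (7.52 to 34.3) and 1.06 CPM (0.34 to 2.47), with a log2 ratio of -4.04 (-6.00 to -2.25). Thinned to equal depth, none of the DKO-severe UMIs of that gate remained and the log2 ratio was -1.82 or lower. Cycling cells had 14.6 CPM in WT (9.47 to 21.6) against 2.62 CPM in DKO-severe (1.82 to 3.67), with a log2 ratio of -2.48 that was -1.44 at equal depth. On raw counts the CPM intervals of the 2 genotypes did not overlap in any of the 4 T cell gates. At equal depth the shares of cells with a *Tet1* UMI had overlapping intervals in the Foxp3-positive and cycling gates. They were 3 of 32 WT against 0 of 85 DKO-severe Foxp3-positive cells, and 3 of 81 against 4 of 367 cycling cells. The equal-depth intervals did not overlap in the Cd4 and Cd8 gates, whose shares are given below. Cycling Cd4-gated cells, 40 in WT and 395 in DKO-severe, had 15.0 and 0.94 CPM, with a log2 ratio of -3.99 (-5.73 to -2.25). Cycling Cd8-gated cells, 58 and 123, had 15.4 and 10.2 CPM, with a log2 ratio of -0.60 (-1.69 to 0.54). That interval held 0, so no *Tet1* difference was shown in cycling Cd8-gated cells. Added 5 CPM on both sides, a setting that pulls low genes toward 0, gave -0.94 in the Cd8 gate, short of a 2-fold difference. In the B cell gate *Tet1* had 0 UMIs in WT, where up to 24.99 CPM could go unseen, and 8 in DKO-severe, or 5.36 CPM (2.32 to 10.6), so the genotypes could not be compared there.

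**Figure D1:**
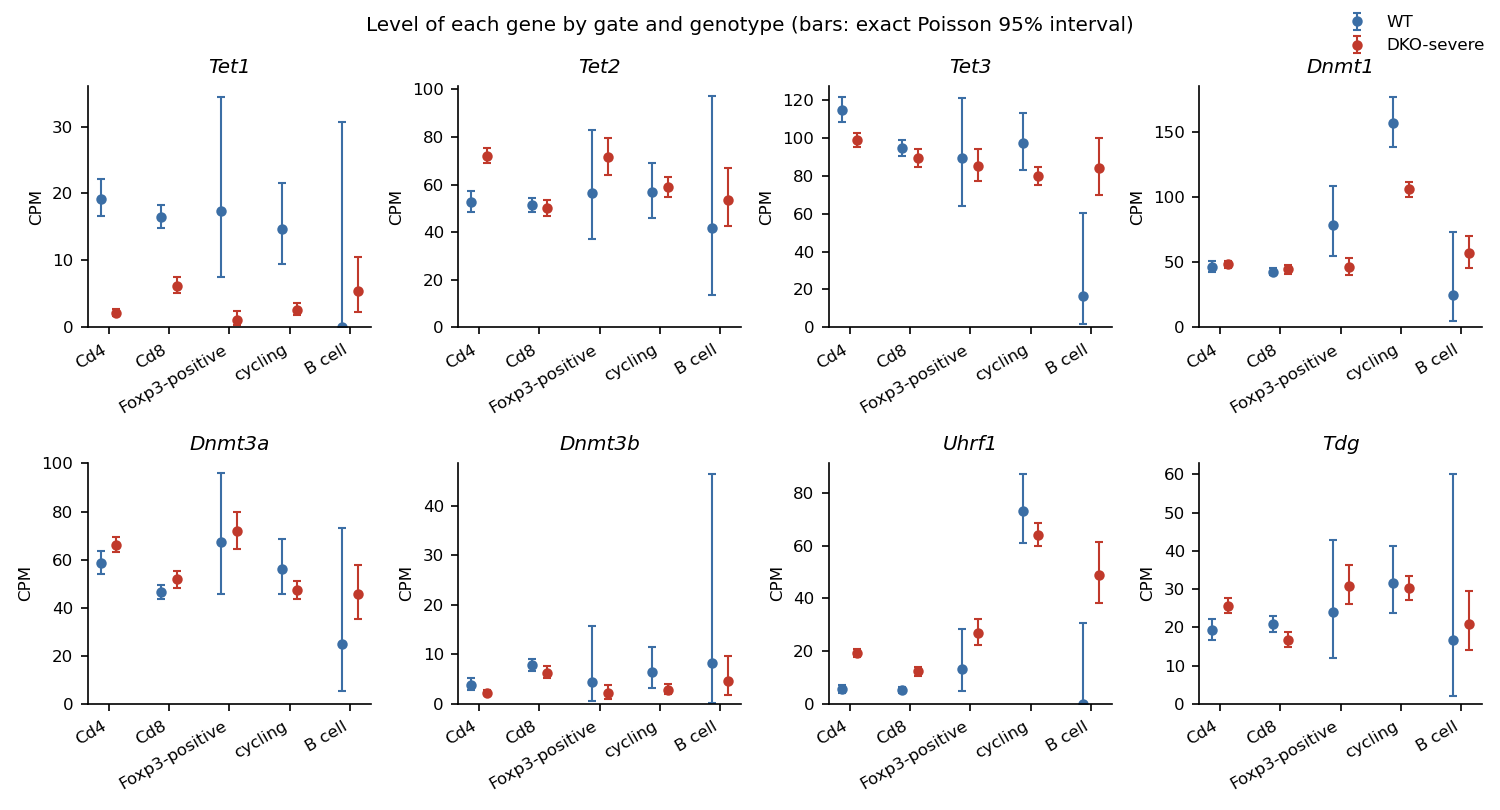
Level of each gene in CPM of summed UMIs, on axes from 0, in the 5 gates; blue points are the WT mouse, red points the DKO-severe mouse, and bars exact Poisson 95% intervals. *Tet1* lay lower in DKO-severe in the 4 T cell gates (2.15 against 19.2 CPM in the Cd4 gate), *Uhrf1* higher in the Cd4 and Cd8 gates, and the 15 WT cells of the B cell gate gave wide intervals.

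Ordered by level, the WT gates ran from Cd4 (19.2 CPM) through Foxp3-positive (17.4 CPM) and Cd8 (16.5 CPM) to cycling cells (14.6 CPM), and each of these neighbours had overlapping intervals. In DKO-severe the order was another one. The Cd8 gate was highest at 6.23 CPM, followed by the B cell gate (5.36 CPM), cycling cells (2.62 CPM), the Cd4 gate (2.15 CPM) and Foxp3-positive cells (1.06 CPM). The intervals of the DKO-severe Cd8 and Cd4 gates did not overlap, while those of the Cd4 gate overlapped both of its neighbours. T cells with neither *Cd4* nor *Cd8* UMIs, a gate added after the data were seen, had 16.1 and 5.96 CPM, and over all retained cells *Tet1* went from 17.8 to 4.15 CPM, with a log2 ratio of -2.10 (-2.31 to -1.89).

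The *Tet1* difference was also present without cells carrying markers of other types. In their absence 1507 WT and 2026 DKO-severe cells of the Cd4 gate gave a log2 ratio of -2.88, and the Cd8 gate gave -1.56. Depth was also set equal by thinning every cell to 3800 UMIs and leaving out shallower cells, a loss of 688 cells (10.4%) in WT and 476 (7.49%) in DKO-severe. At that depth 5.63% (71 of 1262, exact binomial interval 4.42 to 7.04) of WT and 0.98% (19 of 1931, 0.59 to 1.53) of DKO-severe Cd4-gated cells had a *Tet1* UMI, against 9.03% and 1.94% before thinning. Cd8-gated cells had shares of 6.08% (177 of 2911, 5.24 to 7.01) and 2.22% (35 of 1574, 1.55 to 3.08), against 9.14% and 4.84% before thinning. No cell type in these matrices is known to lack *Tet1*, so the share that free RNA would give was not set for it; as a gauge, the CD8 gene *Cd8b1* was found in 2.50% of the 200 thinned DKO-severe B cell-gated cells and in 91.2% of the Cd8-gated ones, with medians of 5135.5 and 9187 UMIs per cell before thinning.

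The gates of the 2 mice held different cell states, so *Tet1* was also read within states. On thinned counts, naive-marker cells (at least 3 of *Ccr7*, *Lef1*, *Satb1*, *Igfbp4* and *Tcf7* detected and no *Cd44*) made up 70.6% of WT and 15.1% of DKO-severe Cd4-gated cells, and 75.6% and 42.7% of Cd8-gated cells. In naive-marker Cd4 cells *Tet1* was at 20.3 CPM in WT (16.6 to 24.5) against 7.13 CPM in DKO-severe (4.08 to 11.6), with a log2 ratio of -1.51 (-2.37 to -0.74). In naive-marker Cd8 cells it was at 19.4 and 6.85 CPM, with a log2 ratio of -1.505 (-1.98 to -1.06). The naive-marker DKO-severe cells of both lineages thus had levels with overlapping intervals, each below its WT counterpart. The Cd4 value rests on 16 DKO-severe UMIs. At equal depth the shares of naive-marker Cd4 cells with a *Tet1* UMI had overlapping intervals, 5.95% in WT (4.49 to 7.71) and 3.44% in DKO-severe (1.66 to 6.23). For naive-marker Cd8 cells they did not overlap, 6.77% (5.75 to 7.90) and 2.23% (1.25 to 3.65). The ratio in naive-marker Cd4 cells was smaller in size than over the whole Cd4 gate, and the part that the mix of states takes in the gate-wide ratio was not tested.

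Past the naive-marker state, the lineages had different values. Cd4 cells between the naive-marker and activated-marker definitions had 15.3 CPM in WT against 1.70 CPM (1.05 to 2.60) in DKO-severe, with a log2 ratio of -3.16 (-4.04 to -2.31). In the DKO-severe mouse this was below the 7.13 CPM of naive-marker Cd4 cells, with intervals that did not overlap. Cd8 cells between these definitions had 11.4 and 5.80 CPM, with a log2 ratio of -0.97 (-1.56 to -0.39). Activated-marker Cd4 cells (*Cd44* detected and at most 1 of the 5 naive genes) had 2 UMIs in WT against 4 in DKO-severe, and activated-marker Cd8 cells 1 and 5, too few to order.

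Low *Tet1* was not limited to DKO-severe Cd4 cells with a *Foxp3* UMI. Cd4-gated cells without a *Foxp3* UMI, here called Foxp3-negative, had 19.3 CPM in WT (16.7 to 22.3) against 2.37 CPM in DKO-severe (1.78 to 3.08). The log2 ratio was -3.03 (-3.49 to -2.59). Detection of *Foxp3* depended on depth, with 331 of 2738 DKO-severe Cd4-gated cells positive before thinning and 85 of 1931 after it. Some Foxp3-negative cells may therefore express the gene. Cd4-gated cells with a UMI of *Cntn5*, a cell adhesion gene, had 9 UMIs in each genotype, which is 17.1 CPM in WT (7.80 to 32.4) against 1.02 CPM in DKO-severe (0.46 to 1.93). Among the 785 DKO-severe Cd4-gated cells with a UMI of *Il21*, a cytokine gene of T follicular helper cells, *Tet1* was at 1.25 CPM (0.62 to 2.23); the 21 WT cells of that kind gave 2 UMIs. Cells with both *Pdcd1* and *Cxcr5*, receptors of the same T cell type, had 1.90 CPM (0.95 to 3.39) in DKO-severe and 1 UMI in WT. These Cd4 subsets of the DKO-severe mouse, which can share cells, lay at or under 2.37 CPM. Foxp3-positive cells with a *Dscam* UMI lay above that, at 2.92 CPM (4 UMIs, 0.80 to 7.48) in DKO-severe, with 0 UMIs in 5 WT cells.

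**Figure D2:**
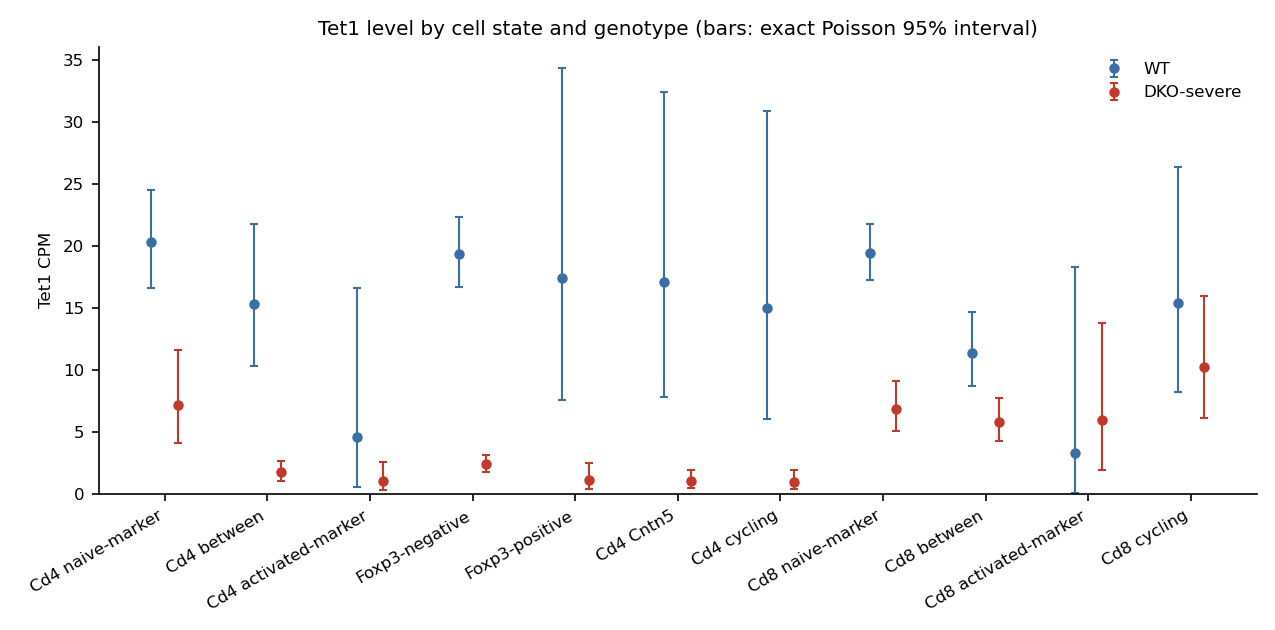
*Tet1* level (CPM of summed UMIs, axis from 0) in cell states of the Cd4 and Cd8 gates, WT in blue and DKO-severe in red, with exact Poisson 95% intervals; states overlap with the Foxp3, Cntn5 and cycling gates. The naive-marker cells of both lineages lay at 7.13 and 6.85 CPM in DKO-severe and at 20.3 and 19.4 CPM in WT, and the other DKO-severe Cd4 states lay below 3 CPM.

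The RefSeq promoter window of *Tet1* is shown because this gene had the largest difference of the 8 and is itself flanked by CpGs. The 250 bases before its RefSeq start (GRCm38.p6, chr10:62887325-62887574, minus strand, 5′ to 3′, within the annotated gene span given above) read as follows, with each CpG in capitals.
Tet1: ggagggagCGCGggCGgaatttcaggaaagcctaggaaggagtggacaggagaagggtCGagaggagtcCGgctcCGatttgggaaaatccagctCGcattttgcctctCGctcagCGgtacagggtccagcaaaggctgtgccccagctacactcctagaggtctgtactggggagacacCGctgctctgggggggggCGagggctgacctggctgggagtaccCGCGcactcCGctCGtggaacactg
This stretch holds 15 CpGs. With the 50 bases after the start the window holds 17, a number that 31.4% of the 32851 RefSeq windows of the same 300 bases reach, and the median window has 7. The windows of *Tet2* and *Tet3* hold 57 and 22. No methylation was measured in these cells, so nothing is said of the state of these sites. The printed window is the only RefSeq one of *Tet1*, and the 5′ end of the annotated span, 62908996, lies outside it. Which start these cells use was not measured.

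TDG acts after the TET enzymes. *Tdg* (ENSMUSG00000034674, chromosome 10, 82629828 to 82650799, plus strand) was at 19.2 CPM (16.7 to 22.1) in WT against 25.6 CPM (23.8 to 27.6) in DKO-severe Cd4-gated cells, with a log2 ratio of 0.41 (0.18 to 0.65). The Cd8 gate had 20.8 CPM (18.9 to 22.9) in WT against 16.7 CPM (14.8 to 18.8) in DKO-severe, with a log2 ratio of -0.32 (-0.54 to -0.10). The direction was thus opposite in the 2 lineages, and neither difference reached 2-fold. In Foxp3-positive cells *Tdg* was at 24.0 and 30.9 CPM, in cycling cells at 31.6 and 30.2 CPM and in the B cell gate at 16.7 and 20.8 CPM, each with overlapping intervals. Cd4-gated cells outside the cycling gate had 18.7 and 21.9 CPM, with a log2 ratio of 0.22 (-0.03 to 0.48). Within states, the Cd4 log2 ratio was 0.06 (-0.48 to 0.59) in naive-marker cells. It was 0.12 (-0.34 to 0.61) in cells between the naive-marker and activated-marker definitions. The same states of the Cd8 gate gave -0.46 (-0.80 to -0.13) and -0.25 (-0.62 to 0.12). *Tdg* overlaps *Glt8d2*, and the mouse genome holds a processed copy of it, so its reads may be split.

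DNMT1 and UHRF1 work together after replication, and their transcripts were more abundant in cycling cells. *Uhrf1* (ENSMUSG00000001228, chromosome 17, 56303321 to 56323486, plus strand) was at 5.47 CPM in WT Cd4-gated cells (56 UMIs, 4.13 to 7.104) and 19.2 CPM in DKO-severe (537 UMIs, 17.6 to 20.9). The log2 ratio was 1.81 (1.41 to 2.24), and 613 of the 9899 genes in that gate had a higher one. In the WT mouse 10 of the 56 UMIs came from a single cell. Cd8-gated cells had 5.24 CPM (4.31 to 6.31) and 12.3 CPM (10.7 to 14.1), with a log2 ratio of 1.23 (0.89 to 1.58), with 174 of 9307 genes higher. Stricter gates gave 0.99 in Cd4-gated cells and equal depth gave 1.22, while 5 added CPM gave 0.76 in Cd8-gated cells. Without cells carrying markers of other types the log2 ratios were 1.66 and 1.56.

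Split by cycling, the *Uhrf1* log2 ratio had an interval that held 0 in cycling cells of either lineage and remained positive, at a smaller size than over the whole gate, in the other cells. Cycling cells were 40 of 1739 WT and 395 of 2738 DKO-severe Cd4-gated cells; on thinned counts the shares were 1.35% (0.79 to 2.15) and 5.80% (4.80 to 6.94). Cycling Cd4-gated cells had 70.6 CPM (48.6 to 99.2) of *Uhrf1* in WT and 59.8 CPM (54.3 to 65.6) in DKO-severe, with a log2 ratio of -0.24 (-0.75 to 0.32). The remaining Cd4-gated cells had 2.35 CPM (1.49 to 3.53) and 4.53 CPM (3.66 to 5.55), with a log2 ratio of 0.94 (0.27 to 1.67). Cd8-gated cells gave 69.9 and 72.4 CPM when cycling, with a log2 ratio of 0.05 (-0.40 to 0.52), and 2.53 and 4.64 CPM otherwise, with a log2 ratio of 0.87 (0.33 to 1.43). *Uhrf1* was thus many times higher in cycling than in other cells of either genotype, and the DKO-severe gates held more cycling cells. Outside them a difference remained that was less than 2-fold, with intervals that reached past 2-fold. In those other cells of both gates *Uhrf1* had a mean below 5 CPM and was not counted among the genes tested. Over all cycling T cells it was at 73.2 CPM in WT against 64.2 CPM in DKO-severe, with a log2 ratio of -0.19 (-0.46 to 0.09), and with equal weight per cell 0.47. In Foxp3-positive cells 6 and 127 UMIs gave 13.1 CPM (4.80 to 28.4) and 26.9 CPM (22.4 to 32.0), with overlapping intervals. In the DKO-severe B cell gate *Uhrf1* was at 48.9 CPM (38.4 to 61.5), while the 15 WT cells had 0 UMIs. Setting the WT level at 3 UMIs gave a ratio of 1.96-fold. However, the 73 DKO-severe UMIs lay in only 20 of the 216 cells, with 18 in a single cell. After thinning, the DKO-severe share with a *Uhrf1* UMI was 5.5%, and the interval around the WT share of 0 reached 28.5%. With so few WT cells, a higher level in DKO-severe was not shown in this gate.

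*Dnmt1* (ENSMUSG00000004099, chromosome 9, 20907209 to 20959888, minus strand) had similar levels in both genotypes over each lineage. On raw counts it was lower in DKO-severe in the cycling cells of both lineages and in the other cells of the Cd4 gate. Its level was 46.5 CPM (42.4 to 50.9) in WT against 48.5 CPM (45.9 to 51.1) in DKO-severe Cd4-gated cells, with a log2 ratio of 0.06 (-0.09 to 0.21) that was -0.15 at equal depth. Cd8-gated cells had 42.6 and 44.5 CPM, also with a log2 ratio of 0.06 (-0.08 to 0.20). Within the Cd4 gate, cycling cells had 150 CPM (117 to 189) in WT against 97.1 CPM (90.1 to 104) in DKO-severe, with a log2 ratio of -0.63 (-0.98 to -0.25). The other Cd4-gated cells had 41.6 CPM (37.6 to 45.8) and 30.9 CPM (28.6 to 33.4), with a log2 ratio of -0.43 (-0.61 to -0.24). On these raw counts the gate-wide ratio near 0 was thus made of 2 negative ones and a larger number of cycling cells, which have more *Dnmt1*. The cycling Cd4-gated cells had medians of 7523.5 UMIs in WT and 16911 in DKO-severe, and their ratio was not computed at equal depth. Cd8-gated cycling cells had 161 and 109 CPM, with a log2 ratio of -0.56 (-0.88 to -0.23), but the other Cd8-gated cells had 37.7 and 36.2 CPM, with a log2 ratio of -0.06 (-0.22 to 0.11).

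The *Dnmt1* difference in cycling cells depended on how depth was treated. Over all cycling T cells it was at 157 CPM (139 to 177) in WT against 106 CPM (100 to 112) in DKO-severe, with a log2 ratio of -0.57 (-0.76 to -0.37), from cells with medians of 8581 and 16278 UMIs. After thinning, with the gate set on the thinned counts, the log2 ratio was 0.24, the opposite direction; with equal weight per cell it was -0.18. Granulocyte transcripts were also most abundant in these DKO-severe cells, and without cells carrying markers of other types the log2 ratio was -0.44. In Foxp3-positive cells *Dnmt1* was at 78.4 CPM (54.9 to 109) in WT against 46.4 CPM (40.5 to 53.0) in DKO-severe, with a log2 ratio of -0.76 (-1.27 to -0.21), which was -0.09 at equal depth. Of the 36 WT UMIs behind that level, 13 came from a single cell. In the B cell gate 3 and 85 UMIs gave 24.99 and 57.0 CPM with overlapping intervals.

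**Figure D3:**
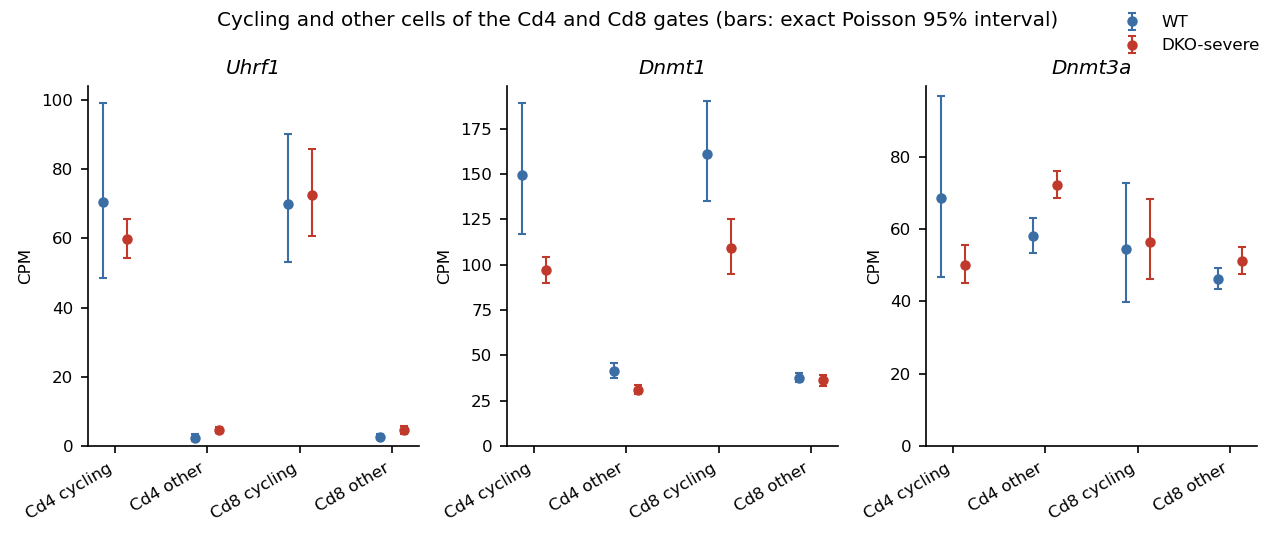
Levels of *Uhrf1*, *Dnmt1* and *Dnmt3a* (CPM of summed UMIs, axes from 0) in cycling and other cells of the Cd4 and Cd8 gates, WT in blue and DKO-severe in red, with exact Poisson 95% intervals. *Uhrf1* was at 59.8 to 72.4 CPM in the 4 cycling groups and at most 4.64 CPM in the others, and *Dnmt3a* ranged from 46.2 to 72.1 CPM over all 8 groups. *Dnmt1* was lower in DKO-severe cycling cells on these raw counts. Over all cycling T cells its log2 ratio was -0.57, and 0.24 at equal depth.

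The 5 genes whose levels were most alike to *Uhrf1* over the 8 points of cycling and other cells, Cd4 and Cd8, and both genotypes were *Hells*, *Tyms*, *Chaf1a*, *Pcna* and *Cenps*, with Pearson correlations of log2(CPM + 1) of 0.998, 0.997, 0.997, 0.997 and 0.996 among 9780 genes. The points are 4 groups of cells in each of 2 matrices, the split by cycling dominates them, and *Tyms* is itself a gene of the cycling gate. *Hells* codes for a chromatin remodeler needed for DNA methylation, *Tyms* for thymidylate synthase, *Chaf1a* for a subunit of the chromatin assembly factor of replication, *Pcna* for the replication clamp and *Cenps* for a centromere protein. Promoter sequence was read beside this list, as genes of replication often carry the E2F motif. Each RefSeq window (250 bases before to 50 after a start) was searched on both strands for TTTCCCGC, TTTCGCGC, TTTGCCGC and TTTGGCGC, which 2.26% of all 32851 windows and 2.61% of the 27025 genes hold. Of the 13 windows of the 8 genes 2 held a match, in *Uhrf1* (1 of its 2 windows) and *Dnmt1* (1 of its 3 windows, with 2 matches), the only members with one. Among the 5 genes above, *Hells* and *Cenps* held 1 each. The matches in *Uhrf1* and *Dnmt1* are printed with their surroundings, 30 bases in the direction of the gene with the matched letters, or their reverse complement, in capitals (GRCm38.p6; chr17:56304117-56304146, plus strand; chr9:20952824-20952853 and chr9:20952574-20952603, minus strand).
Uhrf1: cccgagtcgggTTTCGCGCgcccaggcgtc
Dnmt1, first match: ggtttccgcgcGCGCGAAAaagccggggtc
Dnmt1, second match: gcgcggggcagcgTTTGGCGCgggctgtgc
These matches describe the letters of the windows, and binding was not measured.

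The de novo methyltransferase gene *Dnmt3a* (ENSMUSG00000020661, chromosome 12, 3806007 to 3914443, plus strand) differed little. It was at 58.5 CPM (53.9 to 63.4) in WT against 66.3 CPM (63.3 to 69.4) in DKO-severe Cd4-gated cells, with a log2 ratio of 0.18 (0.05 to 0.31), and at 46.5 and 51.8 CPM in Cd8-gated cells, with a log2 ratio of 0.15 (0.02 to 0.29). Naive-marker Cd4 cells had 51.5 and 69.1 CPM, with a log2 ratio of 0.42 (0.13 to 0.72). Cycling Cd4-gated cells had 68.5 CPM (46.8 to 96.7) and 50.1 CPM (45.1 to 55.4), and the other Cd4-gated cells 58.0 and 72.1 CPM. In the Cd8 gate cycling cells had 54.5 and 56.3 CPM and the other cells 46.2 and 51.2 CPM. Cycling cells thus had the higher *Dnmt3a* level in 3 of the 4 pairs, with overlapping intervals, and the lower one in DKO-severe Cd4-gated cells, where the intervals did not overlap. With immunoglobulin, haemoglobin, mitochondrial and ribosomal protein genes left out of the total, its log2 ratio in the Cd4 gate was 0.02. In Foxp3-positive cells it was at 67.5 and 71.8 CPM and in the B cell gate at 24.99 and 45.6 CPM, with overlapping intervals.

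*Dnmt3b* (ENSMUSG00000027478, chromosome 2, 153649450 to 153687730, plus strand) was the gene with the fewest UMIs. Cd4-gated cells had 40 UMIs in WT against 62 in DKO-severe, or 3.91 CPM (2.79 to 5.32) and 2.22 CPM (1.70 to 2.84), with a log2 ratio of -0.82 (-1.41 to -0.21). This mean lay below 5 CPM, and the gene was not counted among those tested in that gate. Cd8-gated cells had 7.76 CPM (6.62 to 9.05) and 6.29 CPM (5.14 to 7.62), with a log2 ratio of -0.30 (-0.67 to 0.06). In the WT mouse the Cd8 level lay above the Cd4 level, with intervals that did not overlap, and the same held in DKO-severe. In the Foxp3-positive gate 2 and 10 UMIs, in cycling cells 11 and 37 and in the B cell gate 1 and 7 were too few for a difference to be read.

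The 2 targeted genes and their relatives can be set side by side in Cd8-gated cells, where *Tet2* stood at 51.3 and 50.2 CPM, with a log2 ratio of -0.03 (-0.16 to 0.10), and *Tet3* stood at 94.7 and 89.2 CPM, with a log2 ratio of -0.09 (-0.18 to 0.01). In cycling cells *Tet2* stood at 56.8 CPM in WT against 58.8 CPM in DKO-severe, and *Tet3* at 97.2 CPM against 79.6 CPM, the latter with a log2 ratio of -0.29 (-0.52 to -0.04). The higher *Tet2* of the DKO-severe Cd4 gate was also found in naive-marker Cd4 cells, at 46.1 and 66.4 CPM, with a log2 ratio of 0.53 (0.22 to 0.83), but not in the cells between the naive-marker and activated-marker definitions, at 66.7 and 70.5 CPM with a log2 ratio of 0.08 (-0.19 to 0.36). Activated-marker Cd4 cells had 84.9 CPM of *Tet2* in WT (59.8 to 117) and 94.1 CPM in DKO-severe (84.9 to 104). In T cells with neither *Cd4* nor *Cd8* UMIs *Tet3* was at 108 CPM in WT against 73.6 CPM in DKO-severe, with a log2 ratio of -0.56 (-0.71 to -0.41). The B cell gate had 5 and 80 UMIs of *Tet2* and 2 and 125 UMIs of *Tet3*, or 16.7 CPM (2.02 to 60.2) and 83.8 CPM (69.7 to 99.8) of *Tet3*; its 15 WT cells had more transcripts of the plasma cell list than the DKO-severe cells, as given above, and of the monocyte or macrophage list (2691 against 36.9 CPM, with *Cd14* at 0 in both and *Fcgr3* at 0 in WT), and their part in this was not tested.

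Counted over the list, few of the 8 genes passed 2-fold. In the Cd4 gate 7 of 8 met the floor of 5 CPM (all but *Dnmt3b*), 1 was past 2-fold lower (*Tet1*) and 1 past 2-fold higher (*Uhrf1*), where 4.41% and 11.6% of the 9899 genes tested were lower and higher; their median log2 ratio was 0.18 against 0.11 over all genes. In the Cd8 gate all 8 met the floor and the same pair passed, against 1.42% and 2.58% of 9307 genes, with medians of -0.06 and -0.02. Among Foxp3-positive cells 7 met the floor and *Tet1* and *Uhrf1* passed, against 8.66% and 12.5% of 10000 genes, although the log2 ratio of *Uhrf1* there, 1.04 (-0.12 to 2.51), fell short of 2-fold with abundant gene families left out of the total (0.93) and with 5 CPM added (0.82). Cycling cells had *Tet1* alone, lower, against 3.6% of 9971 genes, and none higher, against 7.74%. In the B cell gate 6 met the floor, none passed lower, against 8.93% of 8085 genes, and *Tet3* and *Dnmt1* passed higher, against 17.4%, from 2 and 3 WT UMIs.

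**Figure D4:**
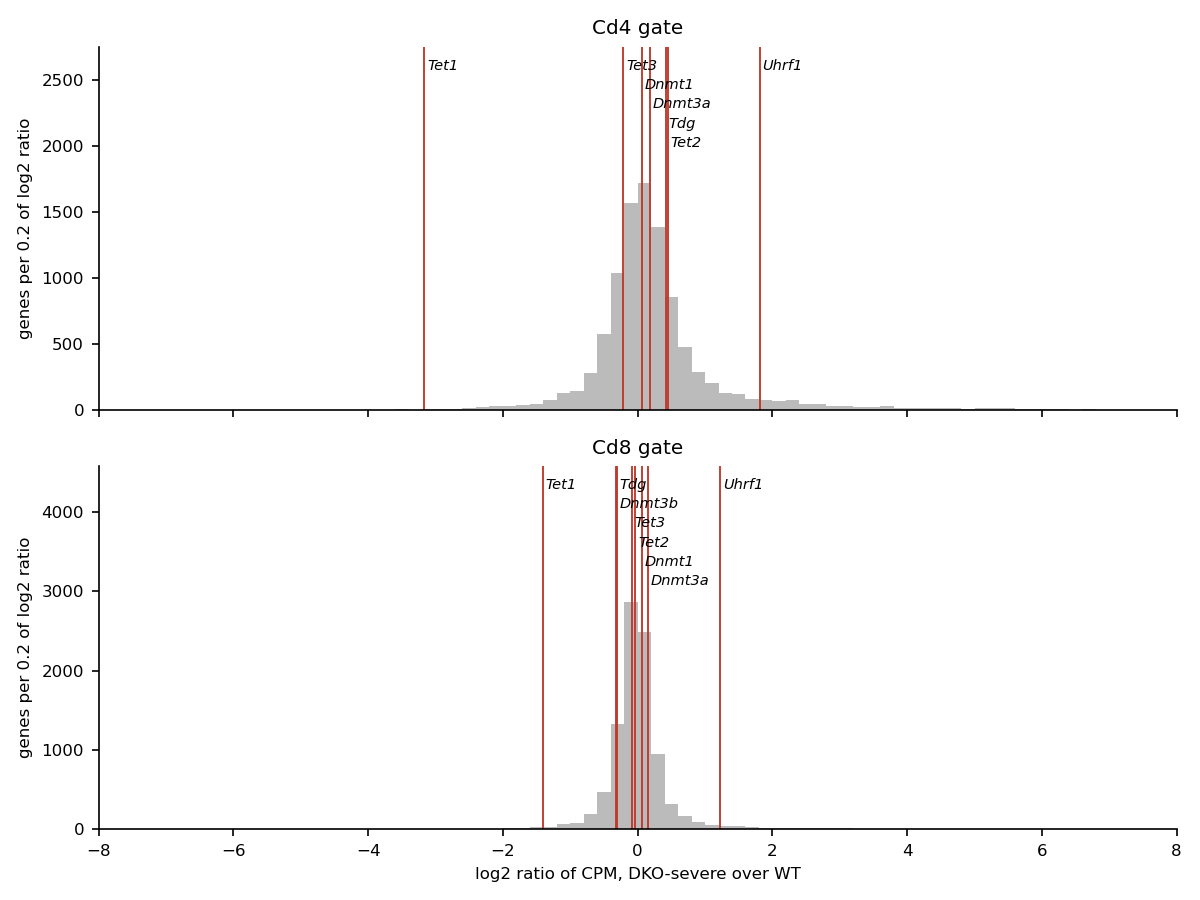
Number of genes per 0.2 of log2 ratio (DKO-severe over WT CPM) among the genes that met the floor, 9899 in the Cd4 gate and 9307 in the Cd8 gate, with the members that met it as red lines. *Tet1* stood at -3.16 and -1.40 and *Uhrf1* at 1.81 and 1.23, while the other members lay between -0.32 and 0.45.

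The genes whose levels were most alike to *Tet1* over 8 points (Foxp3-negative Cd4, Foxp3-positive Cd4, Cd8 and B cell gates in both genotypes, which share no cell) were *Gm12185*, *Slc17a9*, *Parp11*, *Dph6* and *Gm1976*, with Pearson correlations of log2(CPM + 1) from 0.991 to 0.965 among 9918 genes. The points come from 2 matrices, 1 per mouse, and the WT B cell point rests on 120031 UMIs. At that point *Tet1* had 0 UMIs, and each of the named genes lay at or under the 24.99 CPM that a count of 0 allows. The part of that point in the ranking was not tested. *Gm12185* was at 68.6 and 25.4 CPM in WT against DKO-severe Foxp3-negative Cd4 cells and at 63.2 and 45.6 CPM in Cd8 cells. *Slc17a9*, a vesicular nucleotide transporter gene, was at 43.1 and 19.0 CPM and at 45.7 and 33.3 CPM in the same gates. The log2 ratio of *Tet1*, -3.03 and -1.40, was further from 0 than that of either gene in these gates.

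The other genes of DNA methylation were read from a list of 48: 7 of maintenance, 9 readers of methylated DNA, 12 of base excision and its recruitment, 10 of cofactors and methyl donors, and 10 partners of TET and DNMT proteins. In the Cd4 gate 43 met the floor, of which 1 was past 2-fold lower and 9 past 2-fold higher, with a median log2 ratio of 0.15, beside 4.41% and 11.6% over all genes. In the Cd8 gate 39 met it, 0 were lower and 2 higher, with a median of -0.01, beside 1.42% and 2.58% over all genes. The maintenance genes had the highest median of the 5 groups in both gates, 0.59 and 0.50, and 3 of 7 (*Lig1*, *Cdca7* and *Hells*) passed 2-fold higher in the Cd4 gate, where the share of cycling cells also differed. Outside cycling cells the maintenance medians were 0.36 and 0.30; in the Cd4 gate the partners then had the highest median, 0.47, and of the maintenance genes *Lig1* alone passed 2-fold, at 1.05, with *Cdca7* at 0.73 and *Hells* at 0.36. The 9 readers, such as *Mbd2* and *Mbd3*, all met the floor and none passed 2-fold, with log2 ratios from -0.38 to 0.44 in the Cd4 gate and from -0.35 to 0.20 in the Cd8 gate.

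By the naming rule, the ends of that list in the Cd4 gate were *Cxxc5*, *Gadd45g*, *Idh2* and *Sirt1*. *Cxxc5*, a CpG-binding protein gene related to a partner of TET2, was at 3.61 CPM in WT against 19.5 CPM in DKO-severe Cd4-gated cells, with a log2 ratio of 2.43 (1.95 to 2.96), and in the Cd8 gate at 22.3 and 12.6 CPM, with a log2 ratio of -0.82 (-1.06 to -0.58). *Gadd45g*, a stress gene proposed to recruit repair to methylated DNA, was at 5.76 and 30.1 CPM, with a log2 ratio of 2.39 (2.00 to 2.79), and in Cd8-gated cells at 6.67 and 18.9 CPM, with a log2 ratio of 1.501 (1.21 to 1.80). *Idh2*, which makes the TET cofactor 2-oxoglutarate in mitochondria, was at 39.1 CPM in WT against 16.0 CPM in DKO-severe Cd4-gated cells, with a log2 ratio of -1.29 (-1.48 to -1.09), and was the lowest of the list in the Cd8 gate too, at 34.1 and 18.8 CPM, with a log2 ratio of -0.86 (-1.06 to -0.67). *Sirt1*, a deacetylase gene, was at 30.1 and 18.4 CPM in Cd4-gated cells, with a log2 ratio of -0.71 (-0.92 to -0.50), and at 24.2 and 27.2 CPM in Cd8-gated cells, with a log2 ratio of 0.16 (-0.02 to 0.35). *Gadd45b*, of the same family as *Gadd45g*, was second highest in the Cd8 gate at 10.4 and 21.2 CPM, with a log2 ratio of 1.03 (0.78 to 1.28).

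**Figure D5:**
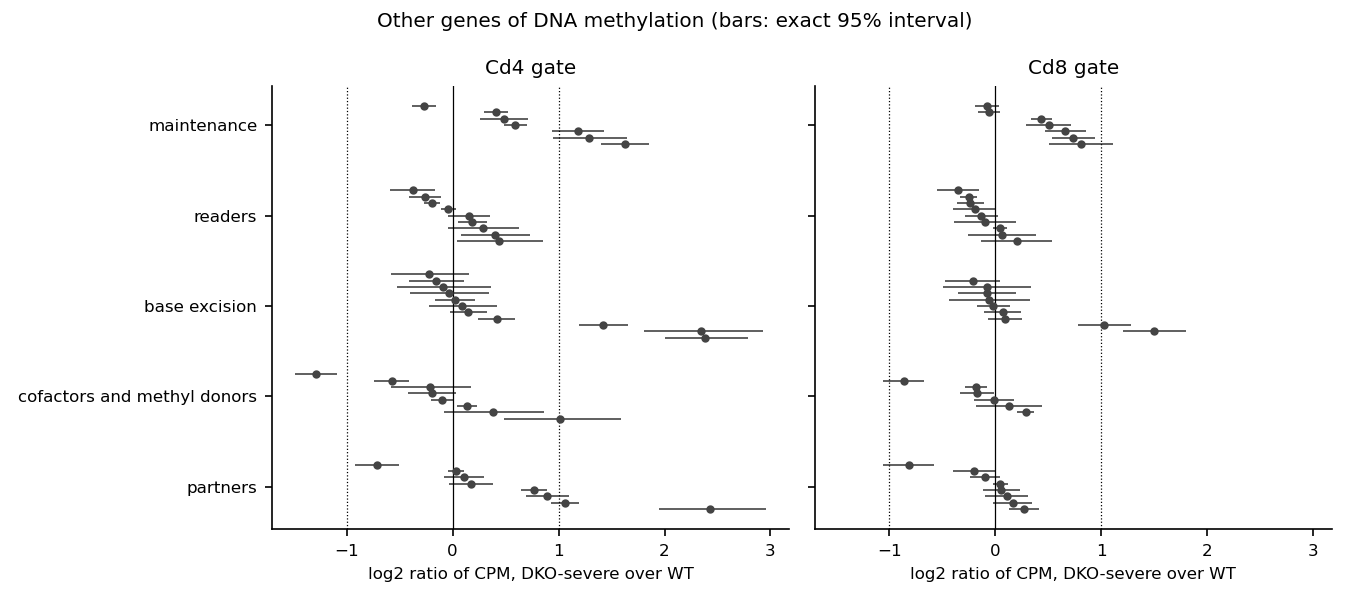
Log2 ratio of CPM, DKO-severe over WT, of each listed gene that met the floor (43 in the Cd4 gate, 39 in the Cd8 gate), by group, with exact 95% intervals; dotted lines mark 2-fold. Most maintenance genes lay to the right, apart from *Usp7* in both gates (-0.27 and -0.06) and *Uhrf2* in the Cd8 gate (-0.08), the readers lay inside the 2-fold lines, and *Idh2* was lowest in both (-1.29 and -0.86).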

How the data were processed

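The deposited matrices hold UMI counts per gene and cell, 1 matrix for each genotype, produced by the authors using Cell Ranger 7.1.0 and mm10 (Seurat is also named in the submitters' processing notes) from 1 mRNA and 1 hashtag library shared by both mice; no normalization was applied, and any filter after cell calling is not given in the sources used here. In the WT matrix 3 barcodes with more Hashtag 2 than Hashtag 1 counts were left out.

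Cells needed 500 or more genes and no more than 10% mitochondrial UMIs. The automatic threshold of Scrublet (scanpy 1.11.5) marked 0 cells in either matrix, so the highest 6% of scores were removed, a rule set after that was seen. Per gate, raw counts were summed and scaled to CPM, with exact Poisson intervals for levels, exact intervals conditional on the gene's total for log2 ratios and Clopper-Pearson intervals for shares (scipy 1.17.1). A side with 0 UMIs was set to 3, no ratio was given where both sides had at most 3, and such ratios are bounds. Naive-marker and activated-marker states were set on thinned counts and their levels on raw counts. A gene of the planned naive list and a gene of the planned pathway list are not reported here, and both lists were used without them, a change made after the data were seen. Genes with a mean of 5 CPM and 10 UMIs over both genotypes were tested against 2-fold; no p-value was computed. The interval code was tested on simulated data.

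The named genes are the 8 members, the 2 highest and 2 lowest of the list of 48 in each lineage and the 5 most like *Tet1* and *Uhrf1* (T cell receptor, immunoglobulin and sex-linked genes left out); other genes of that list named as examples were chosen after their values were seen. The members and lists were chosen with earlier results of these data known. Gene positions are GENCODE M21, and promoter sequence is RefSeq on GRCm38.p6. Alternatives covered doublet removal, cell filter, CPM total, weight per cell, equal depth, pseudocount, gate strictness, floor and cells with markers of other types. Gates of all retained cells and of T cells without *Cd4* and *Cd8* UMIs were added after the data were seen.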

Additional observations from a re-analysis of the deposited data

Results flagged for a closer look

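*Tdg* moved in opposite directions in the lineages: its log2 ratio was 0.41 in the Cd4 gate and -0.32 in the Cd8 gate, and neither counting interval reached 0. *Cxxc5* did the same at a larger size, with 2.43 in the Cd4 gate and -0.82 in the Cd8 gate. Within naive-marker Cd4 cells the *Tdg* log2 ratio was 0.06 (-0.48 to 0.59), so its rise over the Cd4 gate was not shown in that state. With 1 mouse of each genotype, the difference between the lineages was not tested for either gene.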

How the results depend on the processing

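With 1 mouse per genotype no animal could be left out, and no paired analysis was possible because the labels give no replicate numbers. The *Tet1* log2 ratio stayed negative in the 4 T cell gates under every alternative run, between -3.33 and -1.76 (Cd4), -1.56 and -0.94 (Cd8), -5.32 and -1.82 (Foxp3-positive) and -2.92 and -1.36 (cycling). At equal depth it was -2.69 (Cd4), -1.82 (Foxp3-positive, a bound) and -1.44 (cycling), and with 5 CPM added, which shrinks the ratios of low genes, -1.76, -0.94 (Cd8), -1.89 and -1.36. Of the 35 ratios of the other 7 members, 15 had the opposite sign under at least 1 alternative. In the Cd4 gate this was 1 of 7, *Dnmt1*, negative in 5 of its 8 alternatives (0.06 to -0.15 at equal depth). In the Cd8 gate it was 1, *Tet2*, positive in 2 of 8 (-0.03 to 0.08 at equal depth). There were 4 each in the Foxp3-positive and B cell gates and 5 in cycling cells. Among them *Dnmt1* in cycling cells went from -0.57 to 0.24 at equal depth and *Dnmt3b* in cycling cells from -1.17 to 0.17 under stricter gates. In Foxp3-positive cells *Tet2* went from 0.34 to -0.24 at equal depth, and stricter gates took *Tet3* from -0.07 to 0.57 and *Tdg* from 0.37 to -0.32. *Tet2* in the B cell gate went from 0.36 to -1.18 at equal depth. The cause was not tested. The numbers of genes past 2-fold followed the floor. A mean of 20 CPM gave 216 lower and 509 higher genes in the Cd4 gate, 51 and 100 (Cd8), 376 and 519 (Foxp3-positive), 144 and 270 (cycling) and 462 lower (B cell). Without a CPM floor there were 1314 and 3222 (Cd4), 839 and 1104 (Cd8) and 839 and 1653 (cycling). Adding 5 CPM gave 264 lower (Cd4), 53 lower and 148 higher (Cd8), 514 lower (Foxp3-positive) and 191 lower (cycling). Equal depth gave 467 lower (Foxp3-positive), 675 lower and 1163 higher (cycling) and 614 higher (B cell), and leaving abundant gene families out of the CPM total gave 547 lower (cycling). The 15 WT B cell-gated cells and the 64 WT Foxp3-positive cells limit what can be read there.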
